A study of Mus musculus with 6 samples.

Results

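A set of 10 genes of the hypoxia-inducible factor (HIF) pathway, none of them a glycolytic enzyme, was followed in tumor-associated macrophages (TAMs) of wild-type (WT) and C5aR-/- mice. They are Hif1a, Pdk1, Car9, Bnip3, Egln3, Ndrg1, Ankrd37, Higd1a, P4ha1 and Ddit4. These 10 of the 56980 genes in the deposited table were found by matching Ensembl identifiers to gene symbols, and all 10 had a level of at least 1 TPM (a transcript level scaled to length and to the library's total) in at least 3 libraries, the minimum for testing. The study put ID8 cells, a mouse ovarian cancer line, into the peritoneal cavity of female C57BL/6 mice aged 6 to 8 weeks and sorted live CD45+CD11b+Ly6G-F4/80+ cells from the tumors 2 months later. There were 3 RNA-seq libraries from WT mice (WT TAM 1 to 3) and 3 from mice lacking the complement receptor C5aR (C5aR-/- TAM 1 to 3), and the comparison asks how TAM transcripts differ when the receptor is missing. The knockout covers every cell of the host, not macrophages alone, and both groups bore tumors of the same injected line. The study reports less tumor growth and fewer abdominal metastases in C5aR-/- mice, so tumor burden and genotype cannot be told apart here. The part of tumor burden in the differences below was not tested. The study states more mice per group for this experiment than the 3 libraries a group analysed here, and how mice map to libraries is not given in the sources used here, so the p-values measure the spread between these libraries.

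HIF is a transcription factor made of an oxygen-regulated alpha subunit, such as HIF-1α from Hif1a, and a constant beta subunit, ARNT. When oxygen is present, prolyl hydroxylases of the EGLN family mark the alpha subunit for ubiquitination by the VHL complex. When oxygen is scarce the subunit is stable, pairs with ARNT and binds hypoxia response elements at its target genes. HIF-1α is controlled largely at the protein level, so the Hif1a transcript is not a measure of HIF activity. In macrophages the pathway is known for shifting metabolism away from mitochondrial respiration in hypoxic or inflamed tissue.

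The C5ar1 transcript, which encodes the deleted receptor, was 86.51, 37.32 and 16.18 TPM in the WT TAMs and 0.38, 0.11 and 0.05 TPM in the C5aR-/- TAMs. Every library expressed all 10 macrophage markers examined, but their summed level, most of it from Lyz2, ran from 1780 to 7186 TPM in the WT TAMs and from 1585 to 6396 TPM in the C5aR-/- TAMs. Markers of ID8 epithelium, which the sort should remove, summed to 1883 to 2080 TPM and 1810 to 2315 TPM in the WT and C5aR-/- TAMs, most of it from the keratins Krt8, Krt18 and Krt19. Epcam, Cdh1 and Cldn4 of the same list reached at most 6.33, 5.56 and 0.39 TPM, and Cldn3 137.78 TPM. The sum is thus mainly a keratin level, and how much ID8 RNA it stands for was not tested. Of the 8 epithelial markers tested, 4 had differences above 0 and 4 below (median 0.02), with Krt8 and Cldn3 higher in every C5aR-/- library. Mesothelial markers summed to 1068 to 1448 TPM in the WT TAMs and 766 to 1066 TPM in the C5aR-/- TAMs, with 4 of 6 lower and Msln higher in every C5aR-/- library. Neutrophil markers summed to 628 to 2310 TPM and 31 to 389 TPM, and 5 of the 6 tested were lower in every C5aR-/- library. Of the 7 mast cell markers tested, 5 were lower in every C5aR-/- library (median log2 difference of the list -2.68), such as Mcpt4 at 12.02 to 22.38 TPM in the WT TAMs and 0.0 to 0.25 TPM in the C5aR-/- TAMs, while Kit, which other cells express too, was 28.92 to 33.06 TPM and 54.65 to 85.38 TPM. Of all genes tested, 12.5% were lower and 8.84% higher in every C5aR-/- library than in every WT library. Hemoglobin and other erythroid transcripts reached 26558 TPM in C5aR-/- TAM 1 and at most 7262 TPM in any other library. The part of these cells in the differences below was not tested, and in such bulk samples fewer cells of a type and less RNA per cell cannot be told apart.

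Among the 10 genes, Bnip3 and Pdk1 were higher in the C5aR-/- TAMs by more than 2-fold, P4ha1 was higher by a smaller factor, Ddit4 was lower, and Hif1a itself lay at like levels in both groups. Ankrd37 had a ratio of means of 2.17, but its groups overlapped. In limma, a linear model fitted on log2(TPM + 1) over 14776 genes, 0 of the 10 had both a 2-fold change and an adjusted p under 0.05, and neither did any other gene (0.0% of genes tested), although 4 of the 10 and 2133 of all genes had an unadjusted p under 0.05. When the same 2-fold change was required with the p left unadjusted, a threshold that the study's methods also state, 2 of the 10 were higher (Bnip3 and Pdk1) against 2.13% of all genes tested, and 0 were lower against 2.84%. The 3 C5aR-/- values all lay above the 3 WT values for 3 genes (Pdk1, Bnip3 and P4ha1), as for 8.84% of all genes, and all below them for 1 gene (Ddit4), as for 12.5%. For a single gene, 3 libraries against 3 cannot give an exact permutation p below 0.1. The median log2 difference, C5aR-/- minus WT, was 0.44 over the 10 genes and -0.05 over all genes tested. The 10 genes were chosen with earlier results of these data known, so these shares and medians describe them and are no test of the set.

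**Figure D1:**
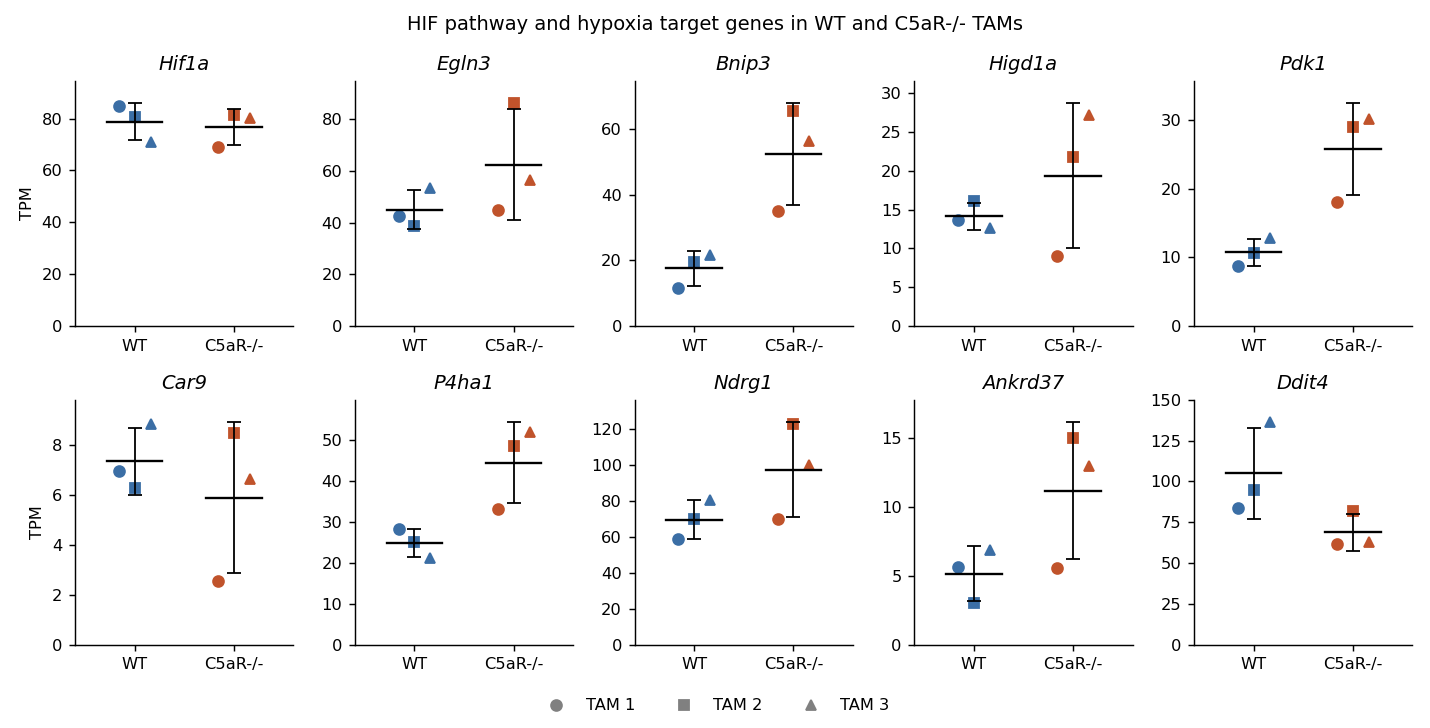
Level in TPM (vertical axis, from 0, scaled per gene) of each of the 10 genes in the 3 WT and 3 C5aR-/- TAM libraries, with points for single libraries and bars for the mean and SD. The groups stand apart for Pdk1, Bnip3 and P4ha1, which were higher in C5aR-/- TAMs, and for Ddit4, which was lower, and they overlap for the other 6.

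The C5aR-/- libraries were not alike. The median of the 10 genes' log2 deviations from their WT means was 0.01 in C5aR-/- TAM 1, against 0.88 in C5aR-/- TAM 2 and 0.72 in C5aR-/- TAM 3, while the WT TAMs lay at -0.06, 0.01 and 0.25. C5aR-/- TAM 1 thus sat within the WT range for the median gene, although it exceeded every WT library for Pdk1, Bnip3 and P4ha1. Without C5aR-/- TAM 1 the median log2 difference of the 10 genes was 0.71, and without C5aR-/- TAM 2 it was 0.22. Without C5aR-/- TAM 1, 7 genes were apart and higher (18.7% of all genes tested in those 5 libraries) and Ddit4 was apart and lower (23.4%). In that fit limma's adjusted p was 0.028 for Pdk1 (range over all alternatives 0.028 to 0.522) and 0.0343 for Bnip3 (range 0.0343 to 0.449), and these 2 genes passed the adjusted threshold with a 2-fold increase, as did 1.5% of all genes. C5aR-/- TAM 1 is also the library with the highest erythroid sum, and it had the lowest mitochondrially encoded sum, 55614 TPM against 69623 to 92802 TPM in the other libraries. The part of these features in its hypoxia gene levels was not tested.

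**Figure D2:**
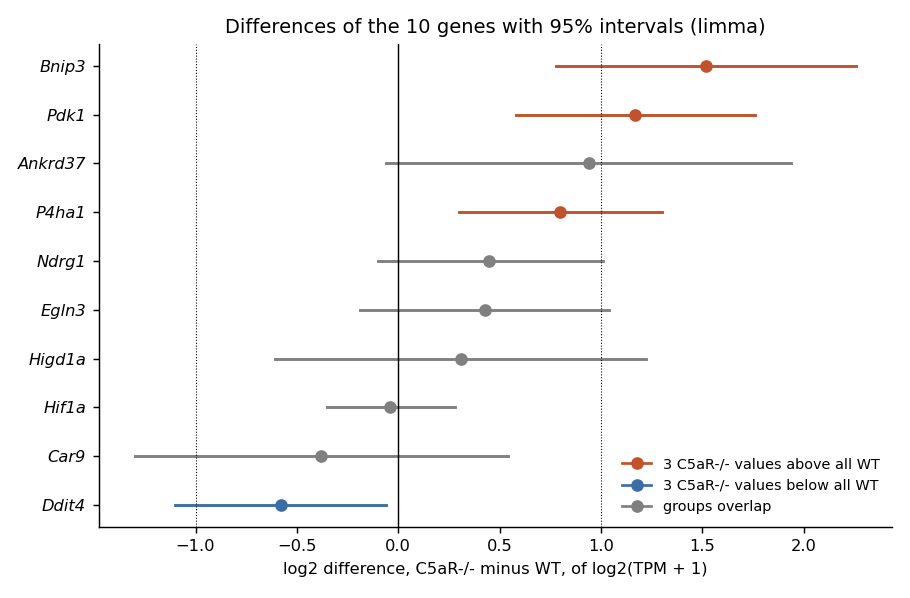
Log2 difference, C5aR-/- minus WT, of log2(TPM + 1) for the 10 genes, with points for the limma estimate and bars for its 95% confidence interval. The intervals of Bnip3, Pdk1 and P4ha1 lie above 0, that of Ddit4 lies below 0, and the other 6 include 0.

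HIF binds a core of 5 letters, ACGTG or GCGTG, on either strand of its target genes. RefSeq promoter windows of GRCm38.p6, from 250 bases before to 50 bases after the transcription start, were found for 9 of the 10 genes, the exception being Ndrg1. A gene was counted by any of its windows. All 9 held at least 1 core, against 66.1% of the 10357 tested genes with a window, and 8 of the 9 (all but Pdk1) held ACGTG, against 28.7%. Taken singly, 43.8% of all 32851 windows held a core and 19.6% held ACGTG. The 9 genes had 10 windows, and the further window of Pdk1, inside the gene, held 0 cores. A match of 5 letters is a description and no evidence that HIF binds there. The start is that of RefSeq. For Hif1a, Ankrd37 and Higd1a the whole window lies inside the GENCODE gene span given below, and so not upstream of that span. Bases -200 to -51 before the RefSeq start are printed 5′ to 3′ on the gene's strand for the 4 genes whose groups stood apart and for Hif1a. Each core, on either strand, is in capitals (CACGT and CACGC are the cores of the other strand).
Bnip3: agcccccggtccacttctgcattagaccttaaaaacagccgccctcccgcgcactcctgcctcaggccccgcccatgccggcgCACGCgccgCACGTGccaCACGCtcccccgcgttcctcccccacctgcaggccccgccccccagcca
Pdk1: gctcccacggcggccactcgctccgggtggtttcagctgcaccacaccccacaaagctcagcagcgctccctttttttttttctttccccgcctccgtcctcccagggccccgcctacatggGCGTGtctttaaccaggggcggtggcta
P4ha1: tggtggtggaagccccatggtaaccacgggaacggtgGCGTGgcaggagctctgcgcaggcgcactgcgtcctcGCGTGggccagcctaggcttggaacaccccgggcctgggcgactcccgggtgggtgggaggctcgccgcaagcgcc
Ddit4: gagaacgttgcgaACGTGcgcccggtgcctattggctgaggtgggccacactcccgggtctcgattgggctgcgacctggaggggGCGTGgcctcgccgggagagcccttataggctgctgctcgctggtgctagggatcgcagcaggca
Hif1a: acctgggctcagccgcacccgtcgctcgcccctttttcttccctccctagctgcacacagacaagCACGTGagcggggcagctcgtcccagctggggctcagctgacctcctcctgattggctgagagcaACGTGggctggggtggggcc
These stretches lie at chr7:138909557-138909706 on the minus strand (Bnip3), chr2:71873024-71873173 on the plus strand (Pdk1), chr10:59323096-59323245 on the plus strand (P4ha1), chr10:59951821-59951970 on the minus strand (Ddit4) and chr12:73907667-73907816 on the plus strand (Hif1a). In Bnip3, 3 groups of capitals stand close together, and the middle one, CACGTG, is a palindrome that reads as ACGTG on both strands. Pdk1 showed a single GCGTG in this stretch. P4ha1 had GCGTG in 2 places, and Ddit4 had 1 core of each spelling. Hif1a carried the same palindrome as Bnip3 and a further ACGTG. A core near the RefSeq start was thus found both in genes whose levels differed and in Hif1a, whose level did not pass any test.

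Hif1a (chr12:73901375-73947530, plus strand, GRCm38 as for all positions here) was 84.76, 80.75 and 71.01 TPM in the WT TAMs and 68.94, 81.24 and 80.34 TPM in the C5aR-/- TAMs. The groups overlapped, with means of 78.8 ± 7.07 and 76.8 ± 6.86 TPM (SD, n = 3 each). The log2 difference was -0.04 with a 95% interval of -0.35 to 0.28 (limma, adjusted p = 0.924), and its sign turned with median-of-ratios scaling (0.01), without WT TAM 1 (0.02) and without C5aR-/- TAM 1 (0.04). Epas1, which encodes the alternative alpha subunit HIF-2α, was 20.96, 21.05 and 25.16 TPM in the WT TAMs and 23.58, 11.3 and 6.09 TPM in the C5aR-/- TAMs. Its 2 low values belong to C5aR-/- TAM 2 and 3, the group means differed by -0.85 on the log2 scale, and the adjusted p in limma was 0.416. The ratio of Hif1a to Epas1 within a library, chosen after the values were seen, ran from 2.82 to 4.04 in the WT TAMs. In the C5aR-/- TAMs it ran from 2.92 to 13.2 (two-sided exact permutation p = 0.3). Arnt, the constant partner, differed by -0.03, and its relative Arnt2 was 7.19 to 9.49 TPM in the WT TAMs and 10.97 to 18.29 TPM in the C5aR-/- TAMs, a log2 difference of 0.71 (limma, adjusted p = 0.246). Of the 4 HIF subunit genes tested, 0 passed the unadjusted threshold with a 2-fold change in either direction, and Hif3a was under the level filter.

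Egln3 (chr12:54178981-54203860, minus strand) encodes the prolyl hydroxylase PHD3, an oxygen sensor that is itself a HIF target. It was 42.63, 38.85 and 53.32 TPM in the WT TAMs and 44.9, 86.18 and 56.41 TPM in the C5aR-/- TAMs. C5aR-/- TAM 2 was the highest of the 6, C5aR-/- TAM 1 lay among the WT values, and the log2 difference of 0.43 (95% interval -0.19 to 1.04) gave an adjusted p of 0.495 in limma and was 0.17 without C5aR-/- TAM 2. The other hydroxylases, Egln1 and Egln2, differed by 0.02 and 0.09. The ratio of Egln3 to Egln1 within a library, chosen after the values were seen, was 1.32 to 1.45 in the WT TAMs and 1.53 to 2.47 in the C5aR-/- TAMs (two-sided exact permutation p = 0.1, the smallest possible). Among 9 tested genes for oxygen sensing and HIF degradation, 0 passed the unadjusted threshold with a 2-fold change, 4 differences were above 0 and 5 below, and the median was -0.02. Vhl, the substrate receptor of the ubiquitin ligase, had a log2 difference of -0.46, with overlapping groups. Eloc, the elongin C subunit of that ligase, was 154.68 to 176.9 TPM in the WT TAMs and 93.45 to 149.06 TPM in the C5aR-/- TAMs (log2 difference -0.42, adjusted p = 0.383 in limma). The 7 tested coactivator and competitor genes of HIF, Ep300 and Cited2 among them, had differences between -0.11 and 0.37 with a median of 0.06, and 0 passed.

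Bnip3 (chr7:138890836-138909519, minus strand) encodes a mitochondrial outer membrane protein that directs mitochondria to autophagy in hypoxia. It was 11.58, 19.52 and 21.58 TPM in the WT TAMs and 35.15, 65.5 and 56.27 TPM in the C5aR-/- TAMs. Every C5aR-/- value exceeded the highest WT value, and the means were 17.6 ± 5.28 and 52.3 ± 15.6 TPM (SD, n = 3 each), a ratio of 2.98. The log2 difference was 1.52 with a standard error of 0.31 and a 95% interval of 0.78 to 2.26 (limma, unadjusted p = 0.002, adjusted p = 0.129). Its closest relative, Bnip3l, which encodes NIX and serves the same kind of mitophagy, was 87.01, 101.32 and 99.58 TPM in the WT TAMs and 111.06, 120.32 and 92.24 TPM in the C5aR-/- TAMs, with a log2 difference of 0.16 (adjusted p = 0.652 in limma). Bnip3l thus stayed the more abundant of the pair in every library, while the ratio of Bnip3 to Bnip3l was 0.133 to 0.217 across the WT TAMs and 0.316 to 0.61 across the C5aR-/- TAMs (exact permutation p = 0.1, ratio chosen after the values were seen). The groups of this ratio had to stand apart, however the Bnip3 and Bnip3l levels within a group were matched. Of 9 tested mitophagy genes, Bnip3 was the only one past the unadjusted threshold with a 2-fold change, and the median difference of the 9 was -0.07. Bnip3 and Ulk1 (log2 difference 0.38) were higher in every C5aR-/- library, and Fundc1 (-0.59) and Becn1 were lower. Fundc1 and Ulk1 were named after their values were seen. Becn1, the autophagy initiation factor beclin 1, lay in a narrow band of 96.65 to 100.08 TPM in the WT TAMs and of 68.65 to 71.09 TPM in the C5aR-/- TAMs (log2 difference -0.48, adjusted p = 0.14 in limma), and was named after its values were seen. Higd1a (chr9:121848563-121858362, minus strand), whose product sits in the inner mitochondrial membrane and modulates the respiratory chain, was 13.67, 16.06 and 12.64 TPM in the WT TAMs and 9.04, 21.82 and 27.22 TPM in the C5aR-/- TAMs. C5aR-/- TAM 1 was the lowest library and the other C5aR-/- TAMs the highest, and the log2 difference of 0.31 (95% interval -0.61 to 1.22, adjusted p = 0.754 in limma) was 0.01 without C5aR-/- TAM 3, 0.16 without C5aR-/- TAM 2 and 0.75 without C5aR-/- TAM 1. Its relative Higd2a differed by 0.14.

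Pyruvate enters the mitochondrial citric acid cycle through the pyruvate dehydrogenase complex, which kinases of the PDK family switch off and the phosphatases PDP1 and PDP2 switch back on. Pdk1 (chr2:71873224-71903858, plus strand), the kinase best known as a HIF-1 target, was 8.8, 10.61 and 12.77 TPM in the WT TAMs and 18.05, 29.01 and 30.24 TPM in the C5aR-/- TAMs. The groups did not overlap, and the means of 10.7 ± 1.99 and 25.8 ± 6.71 TPM (SD, n = 3 each) stood in a ratio of 2.4. The log2 difference was 1.17 with a standard error of 0.25 and a 95% interval of 0.58 to 1.76 (limma, unadjusted p = 0.0024, adjusted p = 0.132). Pdk4, a kinase that answers to fasting and fatty acids rather than to HIF alone, was 4.92, 4.59 and 1.72 TPM in the WT TAMs and 13.78, 12.39 and 18.83 TPM in the C5aR-/- TAMs, a log2 difference of 1.82 (adjusted p = 0.113 in limma), and C5aR-/- TAM 1 was as high as the others of its group. Pdk2 and Pdk3 differed by -0.23 and 0.07, with overlapping groups. The phosphatase gene Pdp1 was 25.27, 27.8 and 24.29 TPM in the WT TAMs and 11.2, 12.15 and 10.11 TPM in the C5aR-/- TAMs. The log2 difference of Pdp1 was -1.14 with a standard error of 0.15 (limma, unadjusted p = 0.000155, adjusted p = 0.0666). That adjusted p was the smallest of all genes tested, but it was a tie. C5ar1 and Mcpt4 shared it, among others, with smaller unadjusted p in limma (5.43e-05 and 4.8e-06). Pdp2 was lower as well, at 1.19 to 2.1 TPM in the WT TAMs and 0.52 to 0.81 TPM in the C5aR-/- TAMs (log2 difference -0.71, adjusted p = 0.28 in limma). The 5 genes of the complex itself, Pdha1, Pdhb, Dlat, Dld and Pdhx, had differences between -0.22 and 0.16 and overlapping groups. Within a library, Pdk1 stood at 0.348 to 0.526 of Pdp1 in the WT TAMs and at 1.61 to 2.99 of it in the C5aR-/- TAMs. The order of the transcripts was thus exchanged in every library. This ratio was chosen after the values were seen. Its groups had to stand apart (exact permutation p = 0.1), because Pdk1 was higher and Pdp1 lower in every C5aR-/- library.

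**Figure D3:**
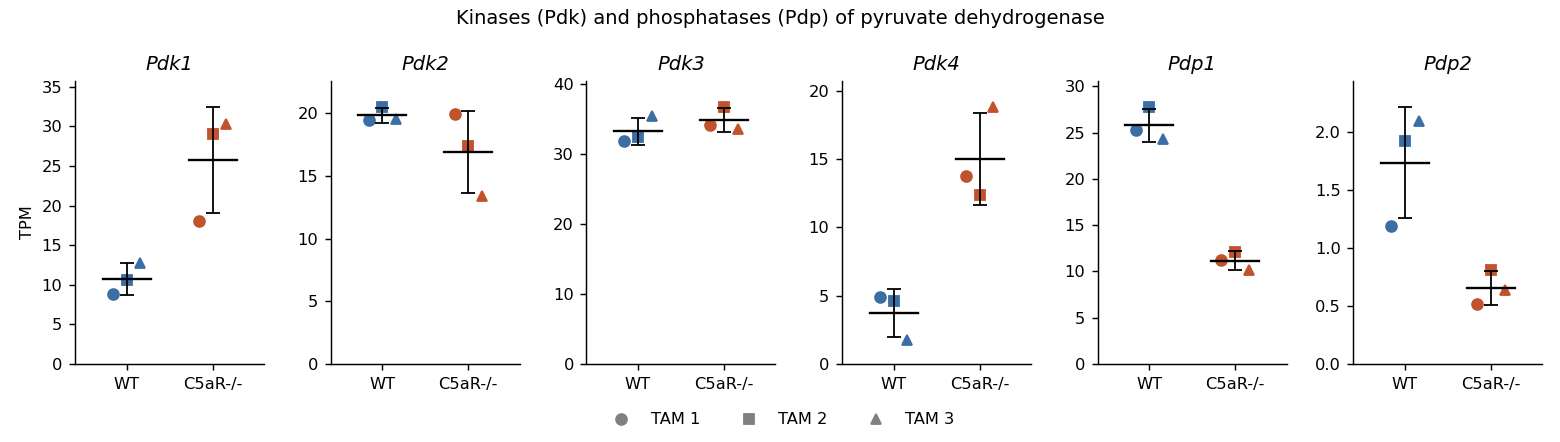
Level in TPM (vertical axes, from 0) of kinases and phosphatases of the pyruvate dehydrogenase complex in the 3 WT and 3 C5aR-/- TAM libraries, with points for libraries and bars for the mean and SD. Pdk1 and Pdk4 are higher and Pdp1 and Pdp2 lower in every C5aR-/- library, and Pdk2 and Pdk3 overlap.

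Car9 (chr4:43506966-43513729, plus strand) encodes carbonic anhydrase IX, a membrane enzyme that handles acid outside hypoxic cells and is among the most used markers of HIF-1 activity. It was 6.95, 6.25 and 8.84 TPM in the WT TAMs and 2.54, 8.47 and 6.64 TPM in the C5aR-/- TAMs, with C5aR-/- TAM 1 lowest and the groups overlapping. The log2 difference of -0.38 (95% interval -1.3 to 0.54, adjusted p = 0.691 in limma) became 0.04 without C5aR-/- TAM 1. The antisense gene Gm12454 overlaps Car9 by 1782 bases and was listed at 2.54 to 8.78 TPM. Libraries were made with a strand-marking kit, but the strand setting of the counting is not given in the sources used here, so reads of Car9 and Gm12454 cannot be told apart here. Car12, the other membrane-bound carbonic anhydrase tied to hypoxia, was 13.1, 8.11 and 8.17 TPM in the WT TAMs and 16.24, 34.95 and 26.37 TPM in the C5aR-/- TAMs. Its log2 difference was 1.28 with a standard error of 0.32 (adjusted p = 0.17 in limma), and the ratio of Car9 to Car12 was 0.531 to 1.08 in the WT TAMs and 0.156 to 0.252 in the C5aR-/- TAMs without overlap (exact permutation p = 0.1, ratio chosen after the values were seen). Car2 and Car13, which are cytosolic, differed by -0.12 and -0.03.

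P4ha1 (chr10:59323296-59373304, plus strand) encodes a catalytic subunit of the prolyl hydroxylase that stabilizes the collagen triple helix. It was 28.15, 25.09 and 21.2 TPM in the WT TAMs and 33.18, 48.5 and 51.87 TPM in the C5aR-/- TAMs. The groups did not overlap, and the log2 difference was 0.8 with a standard error of 0.21 and a 95% interval of 0.3 to 1.3 (limma, unadjusted p = 0.00712, adjusted p = 0.186), short of the 2-fold mark. P4ha2, which encodes an alternative catalytic subunit of the same enzyme, had a larger estimate, at 5.95, 4.28 and 5.4 TPM in the WT TAMs and 11.53, 18.41 and 32.52 TPM in the C5aR-/- TAMs (log2 difference 1.71, adjusted p = 0.133 in limma). P4ha1 was the more abundant of the pair in every library, by a ratio of 3.93 to 5.86 in the WT TAMs and 1.6 to 2.88 in the C5aR-/- TAMs (exact permutation p = 0.1, ratio chosen after the values were seen). P4ha3, a further catalytic subunit gene, differed by -0.48 with overlapping groups. Plod1, a collagen lysyl hydroxylase, was 7.27 to 16.6 TPM in the WT TAMs and 17.6 to 26.52 TPM in the C5aR-/- TAMs (log2 difference 1.04, adjusted p = 0.231 in limma). Fibroblasts are the cell type best known for collagen. Of their 5 markers tested, 4 had differences below 0 and 1, Col1a1, above 0 (median -0.38). Dcn was 373.38 to 531.29 TPM in the WT TAMs and 180.14 to 547.94 TPM in the C5aR-/- TAMs. Col1a2, lower in every C5aR-/- library, was 4.5 to 23.64 TPM and 1.75 to 2.46 TPM. Col1a1 overlapped, at 3.52 to 10.82 TPM in the WT TAMs and 1.21, 43.34 and 235.85 TPM in C5aR-/- TAM 1, 2 and 3. The part of fibroblasts in the P4ha1 difference was not tested.

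Ndrg1 (chr15:66929318-66969640, minus strand), a stress-responsive gene whose product takes part in vesicle and lipid trafficking, was 58.43, 69.99 and 80.11 TPM in the WT TAMs and 69.55, 122.52 and 99.82 TPM in the C5aR-/- TAMs. C5aR-/- TAM 1 lay among the WT values and the other C5aR-/- TAMs above them, with a log2 difference of 0.45 (95% interval -0.1 to 1.01, adjusted p = 0.427 in limma). Ndrg2 and Ndrg3 differed by 0.83 and -0.43, both with overlapping groups. Ankrd37 (chr8:45996902-46005707, minus strand), a small ankyrin repeat gene used in hypoxia signatures, was 5.62, 2.99 and 6.85 TPM in the WT TAMs and 5.54, 15.02 and 12.99 TPM in the C5aR-/- TAMs. The means of 5.15 and 11.2 TPM stood in a ratio of 2.17, with overlapping groups. Its log2 difference of 0.94 (95% interval -0.06 to 1.94, adjusted p = 0.369 in limma) was 1.06 with a pseudocount of 0.1 and reached 1.34 without C5aR-/- TAM 1. Ankrd37 overlaps Ufsp2 on the opposite strand by 57 bases, and Ufsp2 was listed at 34.28 to 42.56 TPM.

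Ddit4 (chr10:59949669-59951834, minus strand) encodes REDD1, which restrains the growth kinase complex mTORC1 through TSC2 and is induced by glucocorticoids and other stresses besides hypoxia. It was 83.56, 94.67 and 136.59 TPM in the WT TAMs and 61.75, 81.85 and 62.91 TPM in the C5aR-/- TAMs. Every C5aR-/- value was below the lowest WT value, the latter only slightly above C5aR-/- TAM 2, and the means were 105 ± 28 and 68.8 ± 11.3 TPM (SD, n = 3 each). The log2 difference was -0.58 with a standard error of 0.22 and a 95% interval of -1.1 to -0.06 (limma, unadjusted p = 0.0334, adjusted p = 0.306). Ddit4 thus lay on the other side of 0 from Bnip3, Pdk1 and P4ha1, and its difference was -0.38 without WT TAM 3. Its relative Ddit4l was 1.02 to 2.77 TPM in the WT TAMs and 0.72 to 7.86 TPM in the C5aR-/- TAMs. Of 10 tested genes of the mTORC1 branch, Tsc2, Rheb and Rptor among them, 0 passed the unadjusted threshold with a 2-fold change, and their median difference was -0.15. Of 10 immediate early and dissociation genes, 5 had differences above 0 and 5 below (median 0.0). At the unadjusted threshold with a 2-fold change, 0 were higher against 2.13% of all genes. The 2 lower ones, Hspa1a and Hspa1b, stood against 2.84%, both with overlapping groups. Egr1 alone had groups apart, and it was lower in the C5aR-/- TAMs. Hspa1b was 90.4, 3262.67 and 2784.83 TPM in WT TAM 1, 2 and 3 and 23.7 to 216.08 TPM in the C5aR-/- TAMs. The part of such stress in the Ddit4 levels was not tested.

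Because TPM is scaled to transcript length, levels can be set against each other. In the WT TAMs the order from high to low was Ddit4, Hif1a, Ndrg1, Egln3, P4ha1, Bnip3, Higd1a, Pdk1, Car9 and Ankrd37, and the ranges of neighbors overlapped except between Ndrg1 and Egln3 and between Egln3 and P4ha1. In the C5aR-/- TAMs Ndrg1 had the highest mean and Ddit4 came after Hif1a, Bnip3 passed P4ha1, Pdk1 passed Higd1a, and Car9 was last. Only P4ha1 and Pdk1 had neighboring ranges that did not overlap in that group, so the changes of order at the top and bottom lay within the spread of the libraries.

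Beyond the 10 genes, 24 of 26 other HIF targets listed as outside glycolysis could be tested. The list is not strict, since it holds Pfkfb4, whose relative Pfkfb3 was placed among the glycolytic targets. Of the 24 tested, 5 passed the unadjusted threshold with a 2-fold increase and 0 with a decrease, against 2.13% and 2.84% of all genes. The 5 were P4ha2, Car12, Vegfa, Plod1 and Lox, the last with overlapping groups. Among the 24, 19 differences were above 0 and 5 below, and the median was 0.5. The list was chosen with earlier results of these data known, so its counts are a description. Vegfa, the angiogenic growth factor, was 52.92, 65.73 and 47.12 TPM in the WT TAMs and 70.69, 152.27 and 216.96 TPM in the C5aR-/- TAMs, a log2 difference of 1.26 (adjusted p = 0.239 in limma). Ero1l, the endoplasmic reticulum oxidase now called Ero1a, was 16.31 to 18.48 TPM in the WT TAMs and 29.7 to 37.97 TPM in the C5aR-/- TAMs, with a log2 difference of 0.91 (adjusted p = 0.093 in limma), and was named after its values were seen. Zfp395 was the only gene of this list that was lower in every C5aR-/- library, with a log2 difference of -0.52. The 16 glycolytic targets, likewise chosen with earlier results known, had a median difference of 0.88. Of them, 6 passed the unadjusted threshold with a 2-fold increase and 0 with a decrease, against the same 2.13% and 2.84%. Their summed level was 5348 to 5852 TPM in the WT TAMs and 7045 to 12649 TPM in the C5aR-/- TAMs, with C5aR-/- TAM 1 the lowest of its group. The glucose transporter gene Slc2a1, Pgk1, Pfkp and Pkm had log2 differences of 1.22, 1.55, 1.01 and 1.02.

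**Figure D4:**
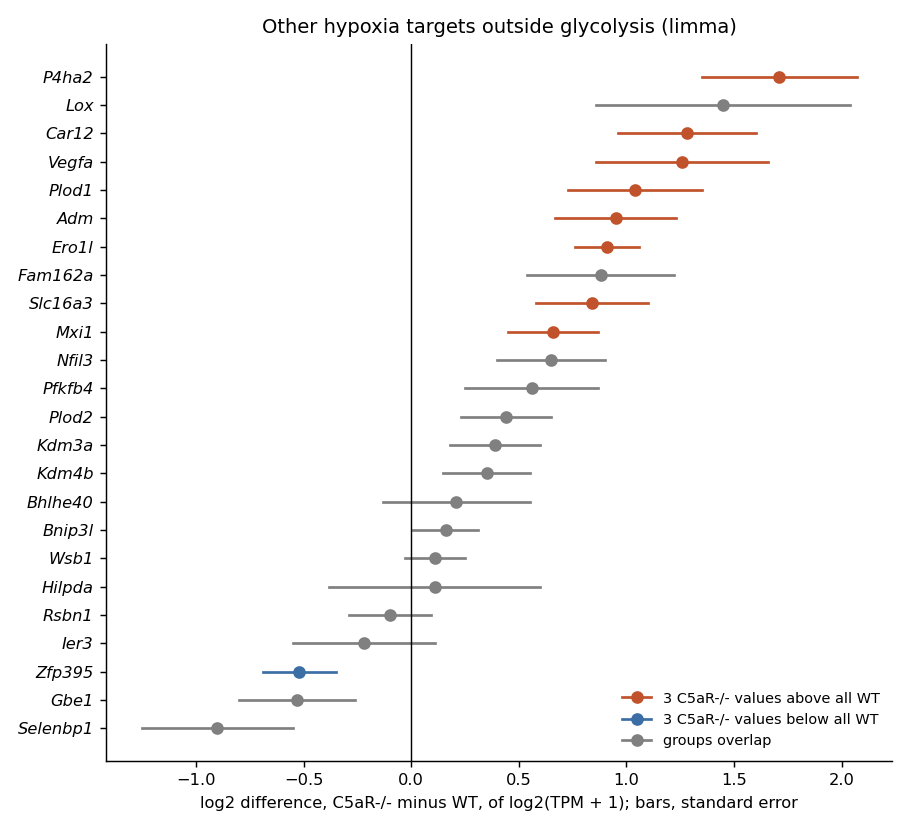
Log2 difference, C5aR-/- minus WT, of log2(TPM + 1) for the tested HIF targets listed as outside glycolysis, Pfkfb4 among them, without the 10 genes. Points show the limma estimate, bars its standard error, and color the groups that stand apart. Of the 24 differences 19 lie above 0, among them P4ha2 (1.71), Car12 (1.28) and Vegfa (1.26), and Zfp395 (-0.52) is the colored gene below 0.

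The macrophage marker sum followed mainly Lyz2, which was 5811.62, 2292.79 and 1408.31 TPM in the WT TAMs and 4787.43, 2779.07 and 1150.58 TPM in the C5aR-/- TAMs. Of the 10 markers, 7 had differences above 0 and 3 below, and Fcgr1 and Aif1 were higher in every C5aR-/- library. In both groups the sum was highest in TAM 1 and lowest in TAM 3. Over the same WT libraries Bnip3, Pdk1 and Ddit4 were lowest in WT TAM 1 and highest in WT TAM 3, whereas P4ha1 and Hif1a were highest in WT TAM 1 and lowest in WT TAM 3. In the C5aR-/- TAMs, Pdk1 and P4ha1 were lowest in TAM 1 and highest in TAM 3, and Bnip3 was lowest in TAM 1 and highest in TAM 2. The part of macrophage content in the differences between the groups was not tested.

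**Figure D5:**
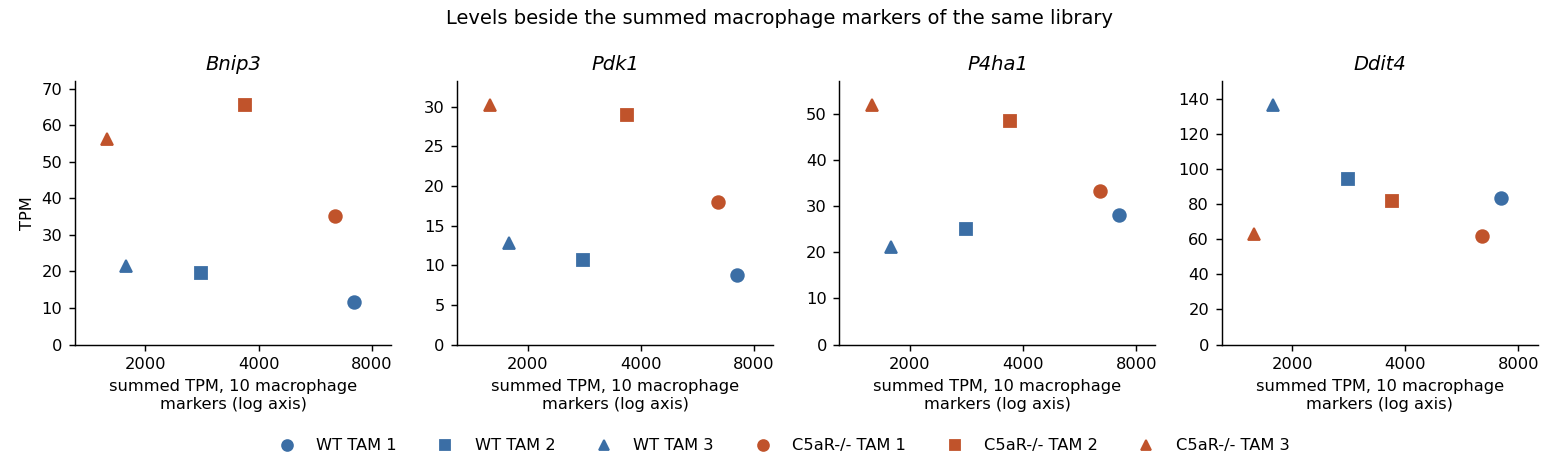
Level in TPM of single hypoxia genes (vertical axes, from 0) against the summed TPM of 10 macrophage markers (horizontal axis, log scale) in each of the 6 libraries. Both groups span a wide range of the sum (1780 to 7186 TPM in the WT TAMs, 1585 to 6396 TPM in the C5aR-/- TAMs), and Bnip3 and Pdk1 are lowest in the library of each group with the highest sum.

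Outside the 10 genes, the closest patterns to their mean z score over the 6 libraries belonged to Mtmr14, Cacna2d2, Gmpr, C1qtnf1, Runx1, S100a4, Ubxn1, Cars2, Lmo4 and Pdgfc, with Pearson r from 0.987 down to 0.977. That mean z score was -0.43, -0.42 and -0.13 in the WT TAMs and -0.68, 1.0 and 0.65 in the C5aR-/- TAMs, so likeness to it is mostly likeness to C5aR-/- TAM 2 and 3 being high. Gmpr, a guanosine monophosphate reductase, showed this at 25.92, 26.97 and 32.0 TPM in the WT TAMs and 24.48, 79.61 and 74.12 TPM in the C5aR-/- TAMs. S100a4, a calcium-binding protein of migrating cells, was 203.67 to 309.12 TPM in the WT TAMs and 204.77, 1296.89 and 668.82 TPM in the C5aR-/- TAMs. With 6 libraries and 14776 genes, r values of this size are a description of these samples. Among the 10 genes, Ndrg1, Egln3 and Ankrd37 followed the mean most closely (r of 0.94, 0.9 and 0.9, each gene being part of the mean), and Hif1a (0.38) and Ddit4 (-0.12) least.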

How the data were processed

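RNA-seq was measured in 6 libraries of sorted TAMs, 3 WT and 3 C5aR-/-, grouped by the sample labels. The libraries were poly(A)-selected and strand-marked with dUTP. The study's methods name fastp, HISAT2, StringTie and gffcompare, and the submitters' processing notes also name RSEM, DESeq2 and the build mm10; tool versions are not given in the sources used here. The authors deposited TPM values per gene, which sum to 1000000 in each library, so read depth is unknown and errors rest on the spread between libraries alone. The 2 columns of the authors' group means were not used.

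Gene symbols and positions came from GENCODE M21 (GRCm38), which matched 52073 of 56980 identifiers. The 14776 genes that reached 1 TPM in 3 or more libraries were fitted on log2(TPM + 1) with limma 3.58.1 in R 4.3.3 (lmFit, eBayes with trend, Benjamini-Hochberg over all genes tested). The edgeR and DESeq2 calls named by the study need read counts and were not run. A fold change on this scale understates that of low genes. The fit was tested on simulated data. Python 3.11.15, pandas 2.3.3, numpy 2.4.6, scipy 1.17.1 and matplotlib 3.10.9 served for the rest.

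The 10 genes, the pathway and marker lists and the tests were chosen with earlier results of these data known. Named with values were the 10 genes, C5ar1, paralogs of the 10 genes, and list genes with a log2 difference of at least 1 in size and groups apart (up to 4 per list and direction, by limma's t), and genes named outside this rule (Krt8, Cldn3, Mcpt4, Kit, Lyz2, Col1a1, Becn1, Ero1l, Zfp395, Pdp2, Eloc, Vhl, Epas1, Arnt and Arnt2 among them) were chosen after their values were seen. Other settings tried were eBayes without trend, median-of-ratios scaling, quantile normalization, a minimum of 5 TPM, testing without any filter, 0.1 as pseudocount, a block for the replicate number, leaving out each library and, chosen after seeing the data, TPM rescaled without mitochondrial and hemoglobin genes.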

Additional observations from a re-analysis of the deposited data

How the results depend on the processing

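Over 14 alternatives, Bnip3 (1.26 to 1.78), Pdk1 (1.04 to 1.4), P4ha1 (0.68 to 1.0), Ankrd37 (0.66 to 1.34), Ndrg1 (0.27 to 0.67), Egln3 (0.17 to 0.64), Higd1a (0.01 to 0.75) and Ddit4 (-0.73 to -0.38) kept the sign of their log2 difference. Hif1a changed sign with median-of-ratios scaling (0.01) and lay between -0.11 and 0.04 when single libraries were left out, and Car9 lay between -0.67 and 0.04. Bnip3 and Pdk1 passed the unadjusted threshold with a 2-fold change under every alternative, joined by Ankrd37 with quantile normalization and without C5aR-/- TAM 1. Leaving out single libraries gave 0 to 2 of the 10 genes at the adjusted threshold (limma) and 4 to 8 with groups apart, the higher numbers without C5aR-/- TAM 1. Over all genes, the count at the adjusted threshold was 0 as reported, 2 with eBayes without trend, and 0 to 349 when single libraries were left out (349 without C5aR-/- TAM 1). The unadjusted count was 733 as reported, 475 with a TPM of at least 5, and 518 to 1220 when single libraries were left out (1220 without C5aR-/- TAM 1). The sources used here do not say whether the replicate numbers pair the libraries. Correlations of same-numbered libraries' deviations were 0.19, -0.01 and 0.27 and do not settle it. With the number as a block, 811 genes passed the unadjusted threshold with a 2-fold change, and 2 of the 10 genes did. With 3 libraries a group, the 95% intervals of Ankrd37 (-0.06 to 1.94) and Higd1a (-0.61 to 1.22) span both no difference and more than a 2-fold increase. The causes of these changes were not tested.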
